A study of Mus musculus with 2 samples.

Results

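The genes described here are named for the respiratory chain and ATP synthase, which make ATP in the inner mitochondrial membrane. They were taken by symbol: rows beginning with Nduf (complex I and its assembly factors), Uqcr (complex III), Cox with 4 to 8 (complex IV) or Atp5 (ATP synthase), and mt-Nd, mt-Co, mt-Cytb and mt-Atp. This gave 103 of 32285 genes, of which 90 are nuclear and 13 are mitochondrial. Of the 103, 93 had enough UMIs (unique molecular identifiers, the count of captured RNA molecules) to be tested. Ndufb1-ps, taken in by its symbol, is annotated in GENCODE M21 as a bidirectional promoter lncRNA and not as protein coding. It had 10491 UMIs over both libraries and is counted below among the nuclear members and the complex I genes. The chain is built from both genomes. Electrons pass from complex I through complex III and cytochrome c to complex IV, and the proton gradient that this pumping builds up drives ATP synthase. The mitochondrial genome encodes core membrane subunits, while the nuclear genome encodes the remaining subunits and the factors that assemble them.

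Both samples are replicate libraries of sorted immune cells from MC38 tumours (a mouse colon carcinoma line grown in mice) on day 21, profiled by 10x 3′ single-cell RNA-seq. There was no treated or control group, so classes of barcodes were compared within the libraries. Strain, genotype, sex and age of the mice are not given in the labels, nor whether the replicates came from separate animals. Xist, a transcript of the inactive X, was detected in every class of replicate 1 and in none of replicate 2, and the Y-linked genes Kdm5d, Eif2s3y, Uty and Ddx3y in replicate 2 alone, so the libraries held cells of mice of different sex. With 1 library of each, sex and any other difference between the libraries cannot be told apart. Classes were gated on raw UMIs of marker genes, none of them a member. Ptprc/Tyrobp-negative barcodes had 0 Ptprc (the leukocyte antigen CD45) and 0 Tyrobp UMIs and met none of the 4 other gates. They numbered 790 in replicate 1 and 1040 in replicate 2. Cd3 T barcodes numbered 44 and 135, dendritic-gate barcodes 156 and 100, neutrophil-gate barcodes 10 and 27, and C1q macrophages 835 and 651. The libraries held 5688000 and 5862342 UMIs in 2749 and 2937 barcodes, of which they shared 0. They stood apart in their macrophages, where Lyz2, the lysozyme gene, had 6975 CPM (counts of the gene scaled to 1e+06 UMIs of the class) in replicate 1 and 13.4 CPM in replicate 2. They also stood apart in the Ptprc/Tyrobp-negative barcodes. There the matrix genes Mgp and Col1a2 had 0.525 and 2.099 CPM in replicate 1 and 778 and 567 CPM in replicate 2. Dcn had 598 CPM in replicate 1 and 83.3 CPM in replicate 2. Each value below is therefore given per library.

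The Ptprc/Tyrobp-negative barcodes had been proposed as tumour-like, but the epithelial markers checked did not bear out that name. Of the epithelial genes Krt8, Krt18, Krt19, Epcam and Cdh1, 4 were at 0 in replicate 1 and Krt19 and Epcam were at 0 in replicate 2, with 2 and 5 UMIs in all. The 6 fibroblast markers were all detected and summed to 1356 and 2262 CPM in these barcodes, against 102 and 89.4 CPM in macrophages. The class is called by its rule here, with no cell type. T-cell markers outside the gate summed to 1358 and 1475 CPM in Cd3 T barcodes, against 89.6 and 236 CPM in macrophages. Neutrophil markers summed to 2584 and 1364 CPM in the neutrophil gate, against 31.3 and 70.9 CPM in macrophages. Dendritic check markers summed to 5585 and 2326 CPM in the dendritic gate, against 5189 and 12267 CPM in macrophages, so they did not set that gate apart. It also held barcodes with 0 Ptprc and 0 Tyrobp UMIs, 57 of 156 in replicate 1 and 47 of 100 in replicate 2.

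Promoters are shown for the nuclear members that rose in Ptprc/Tyrobp-negative barcodes and that the RefSeq table (GRCm38.p6) holds. Windows run from 250 bases before to 50 bases after the start annotated in RefSeq. GENCODE M21, the source of the gene coordinates below, places some starts elsewhere. By it, the Ndufa12 gene starts at 94198720 and the Atp5g2 gene at 102672352 on the minus strand. Both of their windows thus lie wholly inside the gene by GENCODE. Ndufaf2 encodes an assembly factor of complex I and Ndufa12 a subunit of it that is its paralogue, and Atp5g2 encodes subunit c of the ATP synthase ring. The table has no entry for Ndufb9. Capitals mark a match to the motif of NRF1 (nuclear respiratory factor 1), which is known to bind respiratory chain promoters.
Ndufaf2, chr13:108158576-108158875, minus strand: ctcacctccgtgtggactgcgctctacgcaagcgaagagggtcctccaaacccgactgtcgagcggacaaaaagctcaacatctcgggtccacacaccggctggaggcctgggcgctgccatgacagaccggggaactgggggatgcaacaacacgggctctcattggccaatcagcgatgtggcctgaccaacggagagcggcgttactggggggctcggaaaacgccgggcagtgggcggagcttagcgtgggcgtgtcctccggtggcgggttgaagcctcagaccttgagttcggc
Ndufa12, chr10:94198785-94199084, plus strand: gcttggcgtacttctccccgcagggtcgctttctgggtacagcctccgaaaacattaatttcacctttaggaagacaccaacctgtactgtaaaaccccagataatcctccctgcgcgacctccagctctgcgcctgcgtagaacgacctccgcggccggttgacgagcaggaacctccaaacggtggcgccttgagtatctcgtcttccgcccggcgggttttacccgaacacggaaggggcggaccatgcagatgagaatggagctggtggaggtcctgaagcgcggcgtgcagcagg
Atp5g2, chr15:102670998-102671297, minus strand: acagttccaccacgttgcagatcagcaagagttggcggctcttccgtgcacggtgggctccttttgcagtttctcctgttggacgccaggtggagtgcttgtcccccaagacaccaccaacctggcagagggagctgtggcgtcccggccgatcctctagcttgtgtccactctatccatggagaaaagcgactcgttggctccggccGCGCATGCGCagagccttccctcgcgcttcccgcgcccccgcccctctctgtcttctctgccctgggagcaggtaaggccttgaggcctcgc
Of 90 nuclear members, 72 were matched to a promoter, by gene ID or, failing that, by symbol. The tested genes they are set against were matched by symbol alone. The NRF1 motif, 10 letters searched on both strands with 1 of them free and spelled as marked in the Atp5g2 window, was in 17 of the 72 promoters, or 23.6%, against 12.8% of the promoters of 5144 tested genes and 5.19% of all 27025. The YY1 motif, 10 letters on both strands, was in 6 of the 72, or 8.33%, against 2.78% of the promoters of tested genes. The ETS motif ccggaag, on both strands, was in 23.6% of member promoters, against 22.3% of those of tested genes. Matches of different motifs may overlap. In the Atp5g2 window the NRF1 match starts at position 209, and the Ndufaf2 and Ndufa12 windows hold no match to any of the 3 motifs.

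Summed over their members, nuclear and mitochondrial members were present at similar levels in every class. Mitochondrial members made up 3.13% to 3.96% of UMIs, and nuclear members 2.50% to 3.59% of the UMIs outside mt- genes. The Ptprc/Tyrobp-negative barcodes had the highest nuclear share in both libraries, and the neutrophil gate had the lowest. No test of these shares was made, and the exact binomial 95% intervals cover counting error only. In summed counts, fewer cells of a type and less RNA per cell cannot be told apart.

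Nuclear members held 3.59% (3.57 to 3.62) and 3.42% (3.40 to 3.44) in Ptprc/Tyrobp-negative barcodes, against 2.86% (2.84 to 2.89) and 3.27% (3.23 to 3.31) in macrophages. The order was the same in both libraries, with a smaller gap in replicate 2. Mitochondrial members held 3.96% (3.93 to 3.98) and 3.57% (3.55 to 3.59) in Ptprc/Tyrobp-negative barcodes, against 3.24% (3.21 to 3.27) and 3.56% (3.52 to 3.59) in macrophages. The classes were apart in replicate 1 and their intervals overlapped in replicate 2. The filter at 10% mt- UMIs acts on the mitochondrial members themselves, and it removed 38 and 39 Ptprc/Tyrobp-negative barcodes, against 8 and 5 macrophages. Without it, their share was 4.28% and 3.76% in Ptprc/Tyrobp-negative barcodes, against 3.31% and 3.69% in macrophages. The intervals were then apart in replicate 2 as well (3.74 to 3.79 against 3.66 to 3.73). With barcodes of under 5% mt- UMIs it was 2.97% and 2.90% in Ptprc/Tyrobp-negative barcodes, against 2.87% and 3.14% in macrophages, so the order turned in replicate 2. In Ptprc/Tyrobp-negative barcodes without UMIs of the matrix genes Col1a1, Col1a2, Col3a1, Dcn and Mgp (319 and 344 barcodes, at median depths of 897 and 1157.5 UMIs), the nuclear share was 3.35% and 3.26%, against 2.86% and 3.27% in macrophages, so the gap was then in replicate 1 alone.

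Cd3 T barcodes had a nuclear share of 2.68% (2.56 to 2.80) and 3.21% (3.13 to 3.29), below the macrophage share in replicate 1 and overlapping it in replicate 2. Their mitochondrial share was 3.20% (3.07 to 3.33) and 3.83% (3.75 to 3.92), overlapping macrophages in replicate 1 and above them in replicate 2. The dendritic gate had a nuclear share of 3.04% and 3.27% and a mitochondrial share of 3.24% and 3.48%. With its barcodes of 0 Ptprc and 0 Tyrobp UMIs taken out, 99 and 53 barcodes were left, and its nuclear share was 2.48% and 3.07%, below macrophages in both libraries. The neutrophil gate had a nuclear share of 2.50% (2.22 to 2.80) and 2.73% (2.53 to 2.93), and a mitochondrial share of 3.13% (2.82 to 3.46) and 3.64% (3.42 to 3.88). Its nuclear share was thus below that of macrophages in both libraries, while its mitochondrial interval overlapped theirs. With all gate genes left out of the total, the nuclear share was 2.64% (2.34 to 2.96) in replicate 1 and 2.80% (2.60 to 3.01) in replicate 2 of the neutrophil gate, against 2.90% (2.88 to 2.93) and 3.31% (3.27 to 3.35) in macrophages. The intervals then overlapped in replicate 1 and were apart in replicate 2.

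The ratio of nuclear to mitochondrial member UMIs was 0.774 and 0.720 in the neutrophil gate, the lowest of the 5 classes in both libraries, against 0.856 and 0.886 in macrophages. No interval was computed for this ratio, and its rank among the classes was not tested. In the neutrophil gate it rests on 281 nuclear and 363 mitochondrial UMIs in replicate 1, and on 693 and 962 in replicate 2. It was 0.872 and 0.924 in Ptprc/Tyrobp-negative barcodes, 0.811 and 0.805 in Cd3 T barcodes, and 0.908 and 0.907 in the dendritic gate. The plot of shares by class sets these values beside each other.

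**Figure D1:**
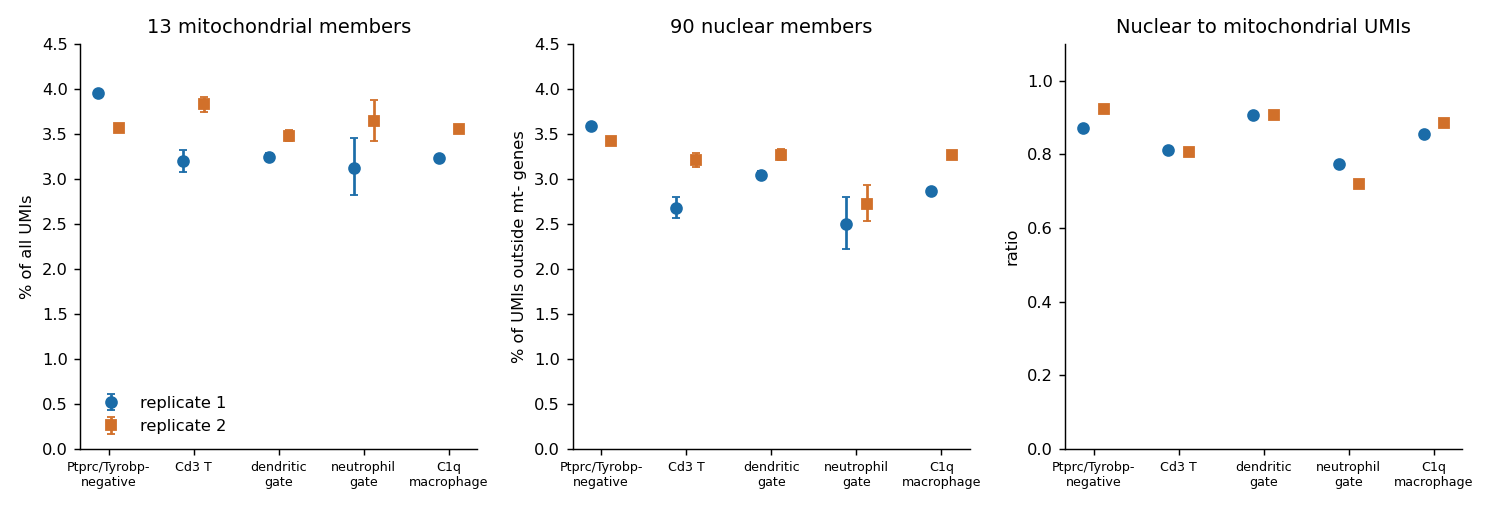
Share of UMIs held by mitochondrial members (percent of all UMIs) and by nuclear members (percent of UMIs outside mt- genes), and the ratio of nuclear to mitochondrial UMIs, by class and library. Bars on the shares are exact 95% binomial intervals, and the ratio is drawn without intervals. The Ptprc/Tyrobp-negative barcodes have the highest nuclear share in both libraries, 3.59% and 3.42%, and the neutrophil gate the lowest ratio, 0.774 and 0.720.

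Set against C1q macrophages gene by gene, Ptprc/Tyrobp-negative barcodes had more RNA of a few complex I genes, of 1 ATP synthase gene and of 2 mitochondrial genes. Ndufaf2, Ndufb9, Ndufa12, Atp5g2, mt-Cytb and mt-Nd2 rose, and Ndufa1 fell. No tested nuclear member of complex III (8 genes) or complex IV (11 genes) passed the test. In all, 7 of 93 members were called, or 7.53%, while 36.6% of all 6427 tested genes were (15.8% higher and 20.8% lower), a share well above that of the members. The members' median log2 fold change was 0.33, against 0.03 over all tested genes. By log2 ratios within each library, 53 members were higher in both, 10 were lower in both and 30 had opposite signs. These signs were not counted over all tested genes. The median ratio in replicates 1 and 2 was 0.34 and 0.17 over members, against -0.06 and 0.01 over all tested genes. These ratios, here and below, are of counts scaled by TMM over the classes of the library, so they differ from the ratios of the CPM values printed beside them. The test was edgeR's quasi-likelihood test on UMIs summed per class and library, with library as a block and Benjamini-Hochberg adjustment over all tested genes, called at 0.05. All 4 comparisons below share the same macrophage sums.

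Ndufaf2, the assembly factor (chromosome 13, 108002715 to 108158623, mm10), had 87.6 and 121 CPM in Ptprc/Tyrobp-negative barcodes, against 40.7 and 32.9 CPM in macrophages. The classes did not overlap. It rose by 1.59 on the log2 scale (SE 0.36; edgeR adjusted p = 0.00066), and the log2 ratios within replicates 1 and 2 were 1.20 and 1.86. Ndufa12 (chromosome 10, 94198720 to 94221443) is a late-joining subunit whose place Ndufaf2 is known to hold during assembly. It had 458 and 359.8 CPM in Ptprc/Tyrobp-negative barcodes, against 231 and 185 CPM in macrophages. Both members of this paralogous pair were thus higher in both libraries, without overlap. Ndufa12 rose by 1.08 on the log2 scale (SE 0.32, edgeR adjusted p = 0.0078). The 11 tested neighbours of Ndufa12 within 2 Mb also lay higher, with a median log2 fold change of 0.81. Of them, 4 were called higher and 0 lower, against 15.8% and 20.8% of all tested genes. The 4 tested neighbours of Ndufaf2 had a median of 0.25, with 0 called higher and 1 lower. The part of position in these changes was not tested.

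Ndufb9, an accessory subunit of the membrane arm of complex I (chromosome 15, 58933756 to 58939488), had 645 and 540.4 CPM in Ptprc/Tyrobp-negative barcodes, against 295 and 249 CPM in macrophages. Each library gave a similar gap, with log2 ratios of 1.24 and 1.12, and Ndufb9 rose by 1.24 on the log2 scale (SE 0.33; edgeR adjusted p = 0.003). Ndufa1, a small membrane subunit encoded on chromosome X (37187588 to 37191163), went the other way, with 176 and 144 CPM in Ptprc/Tyrobp-negative barcodes, against 298 and 347 CPM in macrophages. It fell by 0.92 on the log2 scale (SE 0.35, edgeR adjusted p = 0.038), again without overlap. Ndufa1 was called in 10 of 21 alternative fits, against 21 of 21 for Ndufb9. The 12 tested neighbours of Ndufa1 within 2 Mb also lay lower, with a median log2 fold change of -0.78. Of them, 6 were called lower, Slc25a5 among them, and 1 higher, against 20.8% and 15.8% of all tested genes. The 13 tested neighbours of Ndufb9 had a median of 0.05. The part of position was not tested here either.

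The other nuclear complex I genes missed the threshold. Of the 38 tested genes counted as subunits, Ndufb1-ps among them, 30 had a positive log2 fold change, with a median of 0.38. The core subunit gene Ndufs7 had 139 and 139.5 CPM in Ptprc/Tyrobp-negative barcodes, against 113 and 88.4 CPM in macrophages. It lay higher in each library without passing (edgeR adjusted p = 0.21). Ndufv3, an accessory subunit of the electron input module, lay lower in each library, with 180.5 and 113 CPM in Ptprc/Tyrobp-negative barcodes, against 237 and 257 CPM in macrophages (edgeR adjusted p = 0.19). Of the assembly factors, Ndufaf4 had 24.1 and 33.3 CPM in Ptprc/Tyrobp-negative barcodes, against 16.9 and 21.6 CPM in macrophages. Ndufaf3 had 19.9 and 24.1 CPM in Ptprc/Tyrobp-negative barcodes, against 25.1 and 36.0 CPM in macrophages, so these assembly factors differed in sign, and neither passed.

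Ndufa4, named for complex I but now placed in complex IV, split the libraries. In replicate 1 it had 792 CPM in Ptprc/Tyrobp-negative barcodes, against 325 CPM in macrophages. In replicate 2 it had 342 CPM in Ptprc/Tyrobp-negative barcodes, against 423 CPM in macrophages. The log2 ratios were 1.39 and -0.31, and Ndufa4 did not pass (edgeR adjusted p = 0.19).

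**Figure D2:**
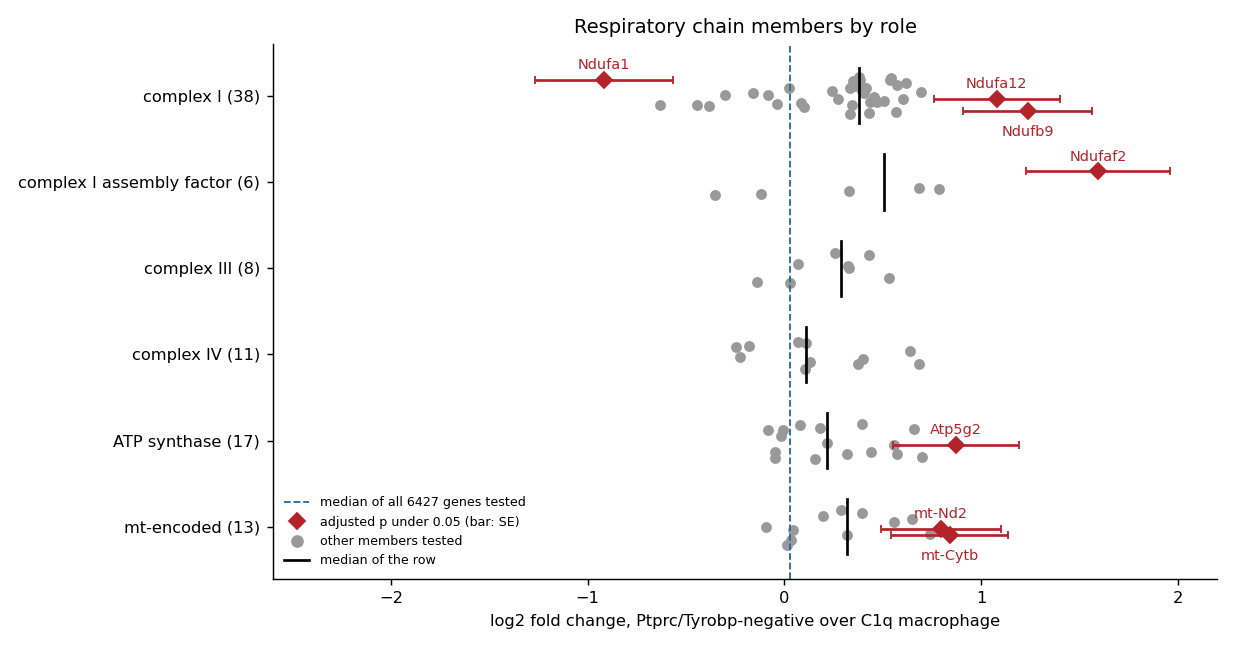
Log2 fold change of each of the 93 tested members, Ptprc/Tyrobp-negative barcodes over C1q macrophages, in rows by role; red marks passed the test and have SE bars, black ticks are row medians, and the dashed line is the median of all 6427 tested genes. Most members lie right of the dashed line at 0.03, and of the called ones Ndufa1 alone lies left of it.

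**Figure D3:**
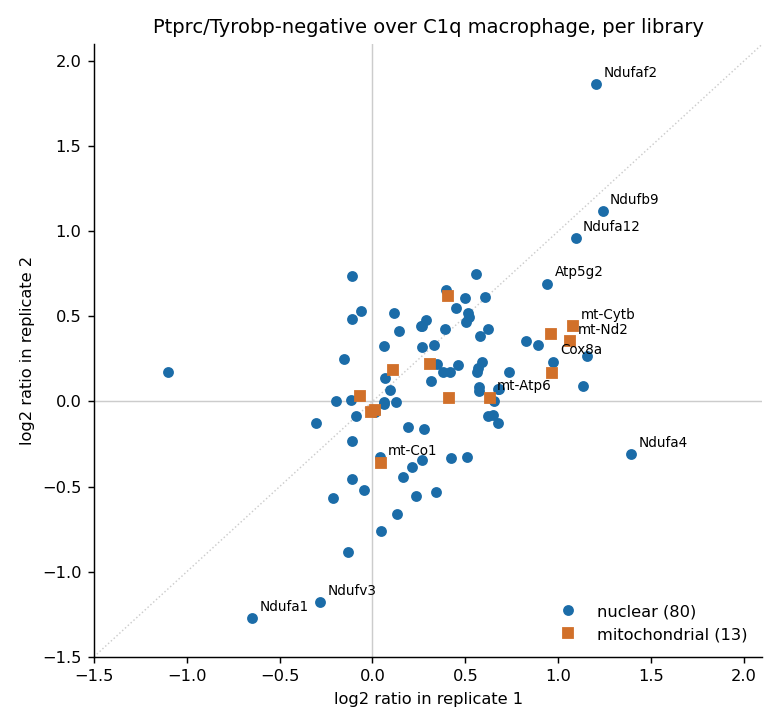
Log2 ratio of Ptprc/Tyrobp-negative barcodes over C1q macrophages in replicate 1 (horizontal) and replicate 2 (vertical), after TMM scaling, for 80 nuclear and 13 mitochondrial members. Ndufaf2, Ndufb9 and Ndufa12 are high on both axes, while Ndufa4 is at 1.39 in replicate 1 and -0.31 in replicate 2.

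In ATP synthase, Atp5g2 (chromosome 15, 102662864 to 102672352) had 971 and 783 CPM in Ptprc/Tyrobp-negative barcodes, against 546 and 484 CPM in macrophages. The classes did not overlap, and it rose by 0.87 on the log2 scale (SE 0.32; edgeR adjusted p = 0.031). Atp5g1 and Atp5g3 are known to encode the same mature subunit c. Atp5g1 had 702 and 660.0 CPM in Ptprc/Tyrobp-negative barcodes, against 528 and 469 CPM in macrophages. Atp5g3 had 278 and 402 CPM in Ptprc/Tyrobp-negative barcodes, against 286 and 366 CPM in macrophages. Neither passed the test (edgeR adjusted p = 0.17 and 0.75), and the Atp5g3 classes overlapped. Atp5b, the catalytic beta subunit, had 488 and 686 CPM in Ptprc/Tyrobp-negative barcodes, against 359 and 408 CPM in macrophages (edgeR adjusted p = 0.079). Of the 17 ATP synthase members, 12 had a positive log2 fold change, with a median of 0.21. Nuclear members with near-identical pseudogene copies are uncertain here, since the counting could split their reads.

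Of the 8 nuclear complex III members, 7 had a positive log2 fold change, with a median of 0.29. Uqcr11, a small subunit, had 819.6 and 664 CPM in Ptprc/Tyrobp-negative barcodes, against 592 and 509 CPM in macrophages (edgeR adjusted p = 0.18). Uqcrfs1, the Rieske iron-sulphur protein, had 82.4 and 107 CPM in Ptprc/Tyrobp-negative barcodes, against 85.2 and 108 CPM in macrophages, and these values overlapped.

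The 11 tested nuclear members of complex IV had a median log2 fold change of 0.11. Cox8a, Cox7c and Cox6c, small membrane subunits, were the most abundant nuclear members in Ptprc/Tyrobp-negative barcodes, and Atp5e, Cox7c and Cox8a in macrophages (3′ UMI counts do not grow with transcript length). Cox8a had 1962 and 1493 CPM in Ptprc/Tyrobp-negative barcodes, against 1080.0 and 1270.4 CPM in macrophages (edgeR adjusted p = 0.1). Cox6c had 1572 and 1495 CPM in Ptprc/Tyrobp-negative barcodes, against 956 and 1169.7 CPM in macrophages (edgeR adjusted p = 0.091). Both lay higher in each library, and neither passed. Cox7c had 1530.0 and 1569 CPM in Ptprc/Tyrobp-negative barcodes, against 1111 and 1505 CPM in macrophages. Cox4i1, the common form of subunit 4, had 924 and 984 CPM in Ptprc/Tyrobp-negative barcodes, against 935 and 939 CPM in macrophages, and these values overlapped. Cox6a1, the common form of subunit 6a, had 326 and 282 CPM in Ptprc/Tyrobp-negative barcodes, against 322 and 447 CPM in macrophages. Cox6b1 had 594 and 548 CPM in Ptprc/Tyrobp-negative barcodes, against 662 and 785 CPM in macrophages. Subunits 6a and 6b thus lay lower in replicate 2, where the log2 ratios were -0.66 for Cox6a1 and -0.52 for Cox6b1. Cox7a2, the common form of subunit 7a, had 734 and 1094 CPM in Ptprc/Tyrobp-negative barcodes, against 660.0 and 804 CPM in macrophages. Cox7a2l, which is known to help join complexes III and IV, had 252 and 230.2 CPM in Ptprc/Tyrobp-negative barcodes, against 249 and 231 CPM in macrophages. Cox7b had 527 and 686 CPM in Ptprc/Tyrobp-negative barcodes, against 499.6 and 762 CPM in macrophages. None of these passed.

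The 13 mitochondrial genes did not move as one. mt-Cytb, the cytochrome b of complex III, had 5265 and 3543 CPM in Ptprc/Tyrobp-negative barcodes, against 2687 and 2611 CPM in macrophages. It rose by 0.84 on the log2 scale (SE 0.30; edgeR adjusted p = 0.025), with log2 ratios of 1.08 and 0.44 in the libraries. mt-Nd2, a membrane-arm subunit of complex I, had 3572 and 1861 CPM in Ptprc/Tyrobp-negative barcodes, against 1845 and 1458 CPM in macrophages. It rose by 0.79 on the log2 scale (SE 0.30; edgeR adjusted p = 0.039). Its value in Ptprc/Tyrobp-negative barcodes of replicate 2 lay just above that in macrophages of replicate 1. The 3 mitochondrial subunits of complex IV had log2 fold changes of -0.09 (mt-Co1), 0.03 (mt-Co2) and 0.01 (mt-Co3). mt-Co1, the catalytic subunit, had 5431 and 5727 CPM in Ptprc/Tyrobp-negative barcodes, against 5689 and 7351 CPM in macrophages.

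The remaining mitochondrial genes missed the threshold. mt-Atp6, the channel subunit of ATP synthase, had 9259 and 6523 CPM in Ptprc/Tyrobp-negative barcodes, against 6461 and 6426 CPM in macrophages. mt-Atp8, which overlaps it on the mitochondrial genome, had 625 and 277 CPM in Ptprc/Tyrobp-negative barcodes, against 346 and 247 CPM in macrophages. For both, the gap was mostly in replicate 1. mt-Nd4l, which overlaps mt-Nd4, had 413 and 304 CPM in Ptprc/Tyrobp-negative barcodes, against 229 and 230.2 CPM in macrophages (edgeR adjusted p = 0.071). mt-Nd5 had 404 and 444 CPM in Ptprc/Tyrobp-negative barcodes, against 329 and 289 CPM in macrophages. Both lay higher in each library. Log2 fold changes were 0.19 for mt-Nd1, 0.32 for mt-Nd3, 0.29 for mt-Nd4 and 0.04 for mt-Nd6. Reads in the overlaps between these genes cannot be assigned to one of them with certainty.

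As a share of mitochondrial member UMIs, mt-Cytb held 13.3% and 9.92% in Ptprc/Tyrobp-negative barcodes, against 8.30% and 7.34% in macrophages. mt-Nd2 held 9.03% and 5.21%, against 5.70% and 4.10% in macrophages, and mt-Co1 held 13.7% and 16.0%, against 17.6% and 20.7%. The make-up of the mitochondrial RNA thus differed in the same direction in both libraries for these 3 genes. Without the filter on mt- UMIs, mt-Cytb held 13.2% and 9.94% in Ptprc/Tyrobp-negative barcodes, against 8.41% and 7.45% in macrophages.

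**Figure D4:**
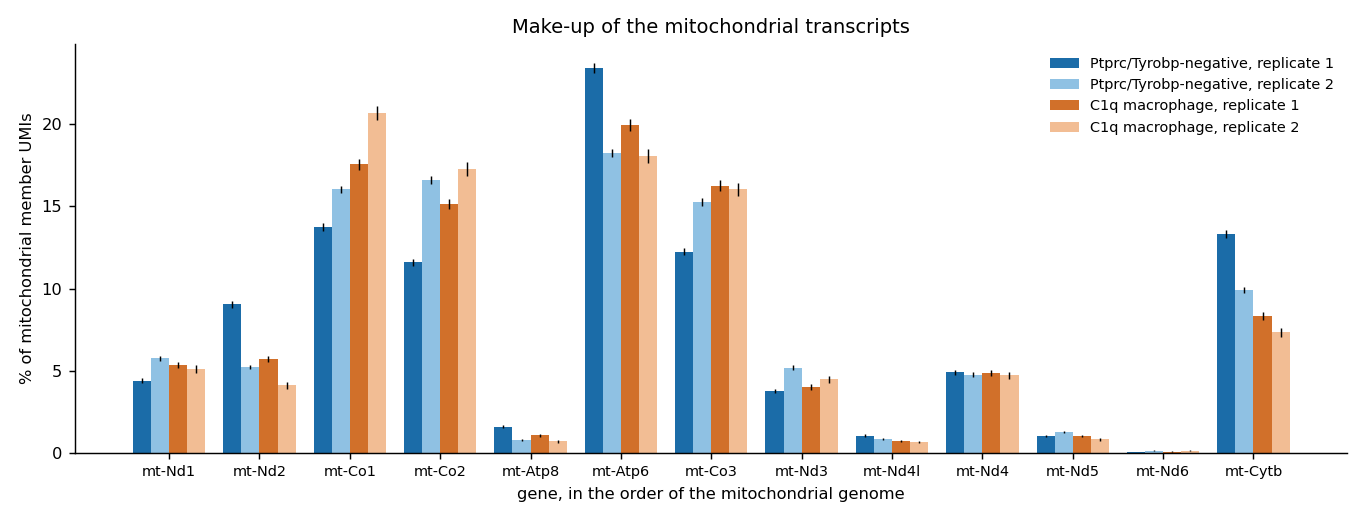
Share of each of the 13 mitochondrial genes in mitochondrial member UMIs, in genome order, for Ptprc/Tyrobp-negative barcodes and C1q macrophages of both libraries; bars start at 0 and lines are exact 95% binomial intervals. mt-Cytb takes a larger share in Ptprc/Tyrobp-negative barcodes of both libraries, 13.3% and 9.92%, and mt-Co1 a smaller one, 13.7% and 16.0%.

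Other measures differed between these classes. The 6 dissociation stress genes were all detected and summed to 399 and 572 CPM in Ptprc/Tyrobp-negative barcodes, against 1468 and 3241 CPM in macrophages. The nuclear-retained RNAs Malat1 and Neat1 summed to 6446 and 5462 CPM, against 6687 and 10332 CPM in macrophages. The 6 macrophage check markers were all detected in Ptprc/Tyrobp-negative barcodes and summed to 1602 and 189 CPM, against 25499.6 and 5604 CPM in macrophages. Their part in the result was not tested. For the fibroblast markers, Ptprc/Tyrobp-negative barcodes without UMIs of those matrix genes were also compared. There 2 members passed, Ndufaf2 (log2 fold change 1.32, SE 0.39, edgeR adjusted p = 0.0091) and Ndufb9 (0.997, SE 0.34, edgeR adjusted p = 0.026). In that fit 19.4% of all tested genes were called, against 36.6% in the main fit. Ndufaf2 and Ndufb9 were also the 2 members that passed without the library block, at edgeR adjusted p = 0.046 and 0.047. Without the block, too, 19.4% of all tested genes were called. The other 5 called members (Ndufa12, Atp5g2, mt-Cytb, mt-Nd2 and Ndufa1) missed the threshold in both of these fits. Over all alternative fits that tested them, Ndufaf2 was called in 20 of 20 and Ndufb9 in 21 of 21. Ndufa12 was called in 19 of 21, Atp5g2 in 17 of 21, mt-Cytb in 15 of 20, mt-Nd2 in 14 of 20 and Ndufa1 in 10 of 21.

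**Figure D5:**
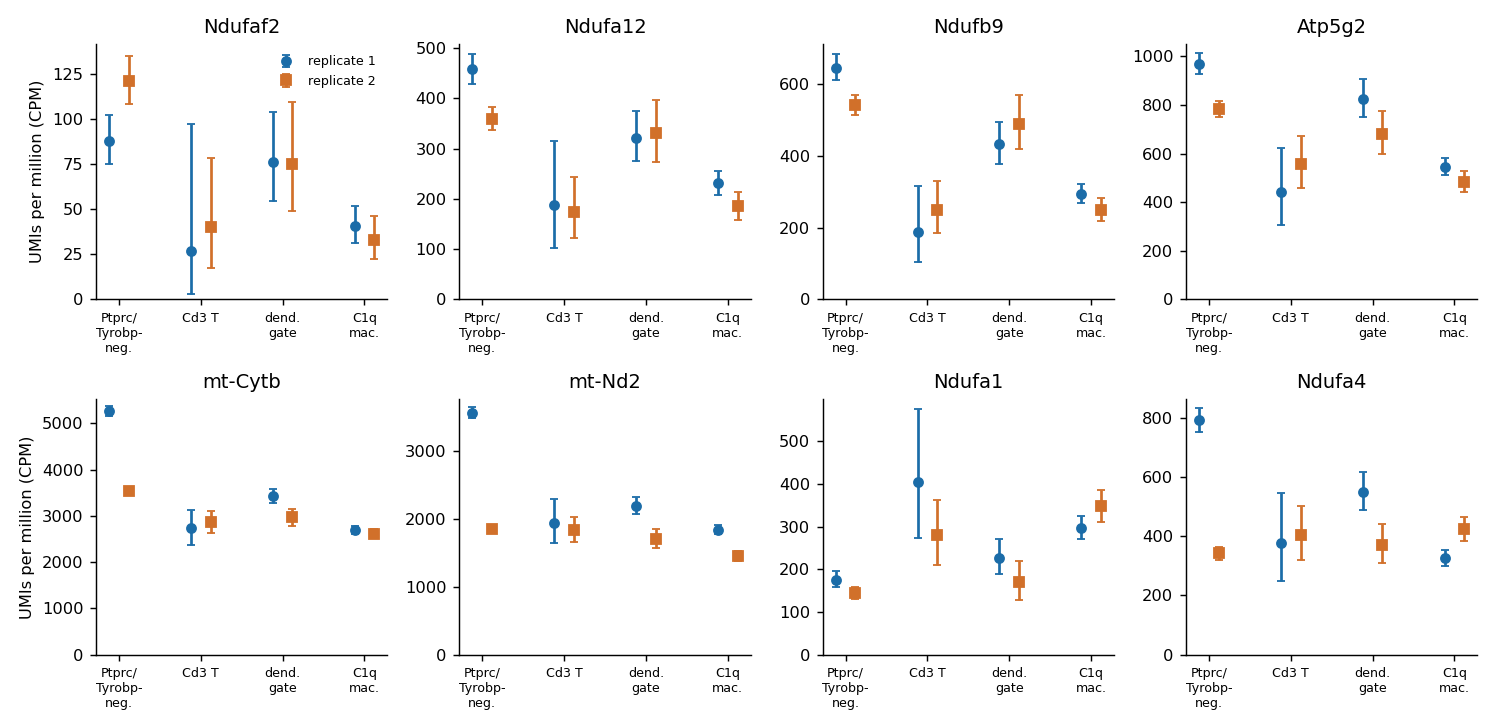
CPM of the 7 called members and of Ndufa4 in 4 classes and both libraries, with exact 95% Poisson intervals as bars. The neutrophil gate, with 10 and 27 barcodes, is not drawn. Ndufaf2, Ndufa12, Ndufb9 and Atp5g2 are higher in Ptprc/Tyrobp-negative barcodes than in macrophages in both libraries, while Ndufa4 is higher in replicate 1 alone.

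Other genes of the pathway were read from lists outside the members. Cytochrome c (Cycs) had 359 and 569 CPM in Ptprc/Tyrobp-negative barcodes, against 252 and 301 CPM in macrophages, and rose (log2 fold change 0.82, SE 0.32, edgeR adjusted p = 0.041). Cyc1, the cytochrome c1 of complex III, had 167 and 235 CPM in Ptprc/Tyrobp-negative barcodes, against 105 and 101 CPM in macrophages, and rose (1.03, SE 0.34, edgeR adjusted p = 0.015). These were the 2 called of 7 tested electron carrier genes, while 36.6% of all tested genes were called in either direction. Of 73 tested mitochondrial ribosomal protein genes 12 rose and 0 fell, or 16.4%, close to the 15.8% of all tested genes that rose. Mrps6 among them had 144 and 119 CPM in Ptprc/Tyrobp-negative barcodes, against 28.8 and 11.3 CPM in macrophages. Of 14 tested assembly genes of complexes III and IV, 2 fell, Coa5 and Pet100, or 14.3%, against the 20.8% of all tested genes that fell. Pet100, which helps assemble complex IV, had 100.2 and 106 CPM in Ptprc/Tyrobp-negative barcodes, against 208 and 230.2 CPM in macrophages. Of 4 tested genes of mtDNA maintenance and expression 1 rose, against 15.8% of all tested genes. This was Ssbp1, the mitochondrial single-stranded DNA binding protein, with 184 and 158 CPM in Ptprc/Tyrobp-negative barcodes, against 89.0 and 86.3 CPM in macrophages. Of 6 complex II genes and 3 transcriptional regulators 0 were called, against 36.6% of all tested genes.

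Among 7 tested genes of ATP exchange and uncoupling, 2 rose and 2 fell, while 36.6% of all tested genes were called in either direction. The ADP/ATP carriers Slc25a4 and Slc25a5 went in opposite directions. Slc25a4 had 501 and 544 CPM in Ptprc/Tyrobp-negative barcodes, against 152 and 153 CPM in macrophages (log2 fold change 1.88, SE 0.34, edgeR adjusted p = 3.70e-05). Slc25a5 had 188 and 181 CPM in Ptprc/Tyrobp-negative barcodes, against 353 and 523 CPM in macrophages, and fell by 1.12 on the log2 scale (SE 0.33; edgeR adjusted p = 0.0072). Ucp2, an uncoupling protein known from leukocytes, had 48.3 and 33.7 CPM in Ptprc/Tyrobp-negative barcodes, against 548 and 654 CPM in macrophages, and fell by 3.77 (SE 0.38; edgeR adjusted p = 2.92e-09). Slc25a3, the phosphate carrier, had 752 and 582 CPM in Ptprc/Tyrobp-negative barcodes, against 319 and 423 CPM in macrophages, and rose.

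In Cd3 T barcodes no member passed against macrophages. Of 93 members 0 were called by edgeR, while 2.35% of all tested genes were (1.06% higher and 1.29% lower), and 1 member had an unadjusted p under 0.05. DESeq2 also called 0, with 1 member at an unadjusted p under 0.05. The members' median log2 fold change was -0.15, against -0.11 over all tested genes, and the median SE of 0.37 limits what could be called. The member with the smallest p was Ndufs7, a core subunit of complex I, with 13.4 and 54.8 CPM in Cd3 T barcodes, against 113 and 88.4 CPM in macrophages (log2 fold change -1.34, SE 0.53, edgeR adjusted p = 0.25). Of the members called in Ptprc/Tyrobp-negative barcodes, Ndufaf2 had 26.9 and 39.9 CPM in Cd3 T barcodes, against 40.7 and 32.9 CPM in macrophages. Ndufb9 had 188 and 249 CPM in Cd3 T barcodes, against 295 and 249 CPM in macrophages. mt-Cytb had 2729.9 and 2866 CPM in Cd3 T barcodes, against 2687 and 2611 CPM in macrophages. None of these 3 passed. Ndufaf6, an assembly factor, had 0 UMIs in Cd3 T barcodes, where a count of 0 allows up to 40.3 and 15.0 CPM (3 UMIs), so a level like the 6.27 and 11.3 CPM of macrophages was not detectable at this depth. Macrophage RNA was present in the T barcodes, with a mean of 1.66 and 1.22 C1q UMIs per barcode, against 20.1 and 12.8 in macrophages.

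In the dendritic gate no member passed either, while 16.9% of all tested genes did (8.17% higher and 8.68% lower). Of 93 members, 0 were called by edgeR and 4 had an unadjusted p under 0.05. DESeq2 called 3, Ndufb9, Ndufa12 and Atp5g2, named after their values were seen. Ndufaf2 had 76.2 and 74.8 CPM in the dendritic gate, against 40.7 and 32.9 CPM in macrophages (log2 fold change 1.03, SE 0.40, edgeR adjusted p = 0.076). Ndufb9 had 433 and 489 CPM in the dendritic gate, against 295 and 249 CPM in macrophages (0.75, SE 0.33, edgeR adjusted p = 0.12). Neither gene overlapped between the classes. Without the barcodes of 0 Ptprc and 0 Tyrobp UMIs, the log2 fold change was 0.09 (SE 0.61) for Ndufaf2 and -0.19 (SE 0.41) for Ndufb9. With Fscn1 left out of the gate, a choice made after seeing the data, it was -0.05 for Ndufaf2 and -0.05 for Ndufb9. The gap in these genes was thus not seen once such barcodes were left out. These fits called fewer genes of any kind, 3.15% of all tested genes in the first and 1.03% in the second.

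The restricted isoforms of complex IV were scarce. Cox7b2, Cox8b and Cox8c had 0 UMIs in every class, and 10 members in all were too low to test. Cox6a2, the muscle form of subunit 6a, had 29 UMIs in the dendritic gate of replicate 1 and 0 in that of replicate 2, against 14 and 3 UMIs in macrophages. Ptprc/Tyrobp-negative barcodes held 34 and 9 UMIs, which made 17.8 and 3.33 CPM, against 55.3 CPM in the dendritic gate of replicate 1. In replicate 1, 25 of the 29 UMIs lay in 15 barcodes with a Siglech UMI, a marker of plasmacytoid dendritic cells, and 11 of the 15 held Cox6a2. The 141 other barcodes of the gate held 4 UMIs. This made 1232 CPM in the Siglech barcodes, against 7.93 CPM in the others, at median depths of 1064 and 2032 UMIs. Replicate 2 had 3 Siglech barcodes with 0 Cox6a2 UMIs, so the pattern rests on replicate 1, and the split was chosen after seeing the data. Cox4i2, a form of subunit 4 known from lung, had 2 and 23 UMIs in macrophages. Cox7a1, the muscle form of subunit 7a, had 23 and 6 UMIs in macrophages.

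The neutrophil gate, with sums of 11611 and 26393 UMIs, gave calls that moved with the scaling, so they are given as a description. On simulated counts, drawn with less spread than these data have, most calls in this comparison were false. There 15 of 93 members were called lower and 0 higher, or 16.1%, while 3.35% of all tested genes were called (3.14% lower and 0.202% higher). The median log2 fold change was -1.17 over members and -1.13 over all tested genes, so the members' median lay close to that of all genes. The TMM factors of the neutrophil sums were 1.87 and 1.69. With no TMM factors 0 members were called, with 7 at an unadjusted p under 0.05, and the medians were -0.18 over members and -0.17 over all genes. mt-Co1, among those called lower, had 4995 and 7805 CPM in the neutrophil gate, against 5689 and 7351 CPM in macrophages, and these values overlapped. Cox5a, a subunit of complex IV, had 258 and 189 CPM in the neutrophil gate, against 401 and 645 CPM in macrophages. Cox7b had 172 and 379 CPM in the neutrophil gate, against 499.6 and 762 CPM in macrophages. Both lay lower in each library before any scaling by TMM. Ndufs6 had 86.1 and 0 CPM in the neutrophil gate, against 216 and 176 CPM in macrophages. Ndufab1, the mitochondrial acyl carrier protein, had 0 and 37.9 CPM in the neutrophil gate, against 137 and 167 CPM in macrophages. These values rest on a few UMIs each. Atp5g3 had 258 and 37.9 CPM in the neutrophil gate, against 286 and 366 CPM in macrophages, and Ndufb7 had 0 and 152 CPM, against 330.3 and 294 CPM in macrophages. The most abundant nuclear members in the neutrophil gate were Atp5e, Cox7c and Ndufb1-ps, with means of 1423, 1366 and 1307 CPM over the libraries.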

How the data were processed

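Single-cell RNA-seq counts of 2 libraries were used as deposited. Per the submitters' processing notes, Cell Ranger 6.0.1, Seurat 4.0.1 and the mm10 build were used, and the authors deposited whole-number UMI counts per gene and barcode. How barcodes were called before deposit is unknown. The smallest deposited barcode had 500 UMIs.

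Barcodes with 300 or more genes and under 10% mt- UMIs were kept (2388 and 2837). Gates were Cd3d, Cd3e and Cd3g at 2 or more UMIs, C1qa, C1qb and C1qc at 5 or more with Tyrobp at 1 or more, S100a8 and S100a9 at 10 or more, and 10 dendritic genes (Xcr1, Clec9a, Flt3, Cd209a, Mgl2, Napsa, Ccr7, Fscn1, Siglech and Zbtb46) at 2 or more. Barcodes meeting 2 or more gates (216 and 276) were left out in place of a doublet caller. Of those meeting none, barcodes with 0 Ptprc and 0 Tyrobp UMIs formed the Ptprc/Tyrobp-negative class. The other 337 and 608 barcodes were left ungated. UMIs were summed per library and class (10 sums) and tested with edgeR 4.0.16 in R 4.3.3 (TMM, filterByExpr, quasi-likelihood, library as block, 4 residual degrees of freedom), with Benjamini-Hochberg adjustment. The classes of a number come from the same library, so the numbers pair them by construction. DESeq2 1.42.0, other gates, filters and thinning to 800 UMIs were alternatives. The fit was checked on simulated counts, which were drawn with less spread between sums than was estimated here, so they do not match these data. There few of the smaller changes were recovered outside the Ptprc/Tyrobp-negative comparison, and within it a part was missed. Calls in the neutrophil gate were mostly false. Called values are at an adjusted p under 0.05. Each SE is the absolute log2 fold change divided by the square root of the quasi-likelihood F. It is thus calculated back from the test and not reported by the fit. CPM intervals are exact Poisson at 95%, or exact binomial for Ndufa4 split by AA467197 UMIs, and cover counting error only. Named genes were the 13 mitochondrial members, members with isoform partners, up to 6 called nuclear members in each direction and the 3 most abundant nuclear members per class; other members named were chosen after their values were seen. Members, gates and lists were chosen with earlier results of these data known. Gene coordinates are from GENCODE M21, with all 103 members matched by ID.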

Additional observations from a re-analysis of the deposited data

How the results depend on the processing

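The number of members called in Ptprc/Tyrobp-negative barcodes was 7. It was 21 by DESeq2 (all higher, 6 of them among the 7), 2 without the library as a replicate block and 3 with only the 2 classes in the fit. It was 11 without the neutrophil class (a choice made after seeing the data) and 14 with macrophages at 10 or more C1q UMIs. With T barcodes at any C1q count it was 11, and with T barcodes of 0 C1q UMIs 4. It was 4 when 0 Ptprc and 0 Tyrobp alone defined the class and 2 without matrix-gene barcodes. The share of all tested genes called moved as well. That share was 36.6% in the main fit, 30.2% by DESeq2, 19.4% without the block and 27.2% with only the 2 classes. It was 40.9% by 0 Ptprc and 0 Tyrobp alone, 19.4% without matrix-gene barcodes and 34.5% to 39.1% in the other fits named here. In the dendritic gate 0 members were called, and 3 by DESeq2, with 1 each without the count filter, at 10 or more C1q UMIs and without matrix-gene barcodes. Of all tested genes, 16.9% were called in the main fit, 12.7% by DESeq2, and 7.35%, 14.1% and 18.7% in the last 3. In the neutrophil gate the 15 became 2 by DESeq2, 8 without the mt- filter, 1 at 10 or more C1q UMIs, 3 and 3 in the 2 other definitions of Ptprc/Tyrobp-negative barcodes, and 0 without TMM, without the replicate block, with only 2 classes, at 3 or more dendritic UMIs, when thinned and without Fscn1. It became 25 without the count filter, 24 at 3 or more C1q UMIs and at 1 or more Cd3 UMIs, and 29 in barcodes of 1000 or more UMIs. Of all tested genes, 3.35% were called in the main fit, 0.669% by DESeq2 and 2.86% without the mt- filter. In the fits with 0 members called this share was 0.0467% to 0.627%. It was 1.86% without the count filter, 3.83% at 3 or more C1q UMIs, 3.48% at 1 or more Cd3 UMIs and 5.27% in barcodes of 1000 or more UMIs. The log2 fold change of mt-Co3 in the neutrophil gate turned to 0.013 without TMM. Members that were not called turned too, among them mt-Cytb (0.098, against -0.91 with TMM), Ndufa1 (0.26, against -0.72) and Ndufaf2 (0.53, against -0.44). In Cd3 T barcodes the count stayed at 0 under all alternatives run, while 0.109% (without the block) to 4.78% (only 2 classes) of all tested genes were called. Leaving out a replicate leaves no residual degrees of freedom, so counts could not be tested that way, and the per-library values stand in the report. The cause of these changes was not tested.

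Class means of the 2 libraries moved as follows. Mitochondrial share: with under 5% mt- UMIs 2.94% in Ptprc/Tyrobp-negative barcodes, 2.78% in the dendritic gate and 3.003% in macrophages, so macrophages were then above Ptprc/Tyrobp-negative barcodes; without matrix-gene barcodes 3.43% in Ptprc/Tyrobp-negative barcodes; without the mt- filter 3.63% and at 20% 3.61% in the dendritic gate; without Fscn1 2.97% in the neutrophil gate. Nuclear share: 3.30% without matrix-gene barcodes in Ptprc/Tyrobp-negative barcodes; 2.78% by 0 Ptprc and 0 Tyrobp alone, 2.97% at 3 or more dendritic UMIs, 2.97% thinned to 800 UMIs and 2.79% without Fscn1 in the dendritic gate; 2.78% at 10 or more C1q UMIs, 2.32% by 0 Ptprc and 0 Tyrobp alone and 2.33% thinned in the neutrophil gate. The ratio without the mt- filter was 0.833 in Ptprc/Tyrobp-negative barcodes, 0.765 in T barcodes, 0.840 in the dendritic gate, 0.701 in the neutrophil gate and 0.845 in macrophages. At 20% it was 0.846 in Ptprc/Tyrobp-negative barcodes, 0.774 in T barcodes and 0.845 in the dendritic gate. At 5% it was 1.18, 0.920, 1.11, 0.812 and 0.996 in the same order of 5 classes. Thinned, it was 0.836, 0.843, 0.831, 0.689 and 0.836 in that order. In T barcodes it was 0.824 at 10 or more C1q UMIs, 0.846 at 1 or more Cd3 UMIs, 0.895 at any C1q count, 0.813 at 0 C1q UMIs, 0.776 by 0 Ptprc and 0 Tyrobp alone, 0.813 at 3 or more dendritic UMIs and 0.825 at 1000 or more UMIs. In the dendritic gate it was 0.923 and 0.901 at 3 and 10 C1q UMIs, 0.928 at 1 Cd3 UMI, 0.821 by 0 Ptprc and 0 Tyrobp alone, 0.881 at 3 dendritic UMIs, 0.920 at 1000 or more UMIs and 0.819 without Fscn1. In the neutrophil gate it was 0.788 at 1 Cd3 UMI, 0.639 by 0 Ptprc and 0 Tyrobp alone and 0.930 without Fscn1. The last mean was no longer the lowest, through replicate 1 alone. There the ratio was 1.14 in 11 barcodes (24586 UMIs), against 0.774 in 10 barcodes (11611 UMIs) of the main gate. Replicate 2 stayed at 0.720. The mitochondrial share of 2.97% without Fscn1 likewise averaged 2.30% in replicate 1 and 3.64% in replicate 2. In macrophages it was 0.908 at 10 or more C1q UMIs.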

Other observations

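AA467197, the mouse counterpart of human C15orf48 (NMES1), is a paralogue of Ndufa4 and was looked at after the split of Ndufa4 between libraries was seen. It had 55.6 and 394 CPM in Ptprc/Tyrobp-negative barcodes, against 246 and 130.5 CPM in macrophages, so between the libraries it ran opposite to Ndufa4 in both classes. Within each class and library, barcodes with an AA467197 UMI had a lower Ndufa4 level than those without. In Ptprc/Tyrobp-negative barcodes Ndufa4 had 707 CPM (95% counting interval 609 to 817) in barcodes with an AA467197 UMI, against 806 CPM (763 to 850) without, in replicate 1. In replicate 2 it had 306 CPM (279 to 335) with, against 388 CPM (353 to 426) without. In macrophages it had 269 CPM (224 to 320) with, against 349 CPM (315 to 385) without, in replicate 1, and 346 CPM (264 to 444) with, against 441 CPM (396 to 489) without, in replicate 2. The intervals were apart in replicate 2 of the Ptprc/Tyrobp-negative barcodes and overlapped in the other 3 sets, and barcodes with the UMI were deeper, at median depths of 1807 against 1498, 2925.5 against 1393.5, 1985.5 against 1306 and 1641 against 1231 UMIs in the same order. The part of depth in this was not tested.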
